A study of Homo sapiens with 9 samples.

Results

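The transcripts of 10 genes of the epithelial-mesenchymal transition (EMT) were followed in OEC-M1 cells, a head and neck squamous cell carcinoma line, under hypoxia. The genes were chosen by name: the transcription factors SNAI1, SNAI2, TWIST1, TWIST2, ZEB1 and ZEB2, the cadherins CDH1 and CDH2, the intermediate filament gene VIM and the epithelial adhesion gene EPCAM. Every gene probe whose transcript RefSeq assigns to these symbols was taken, which gave 16 of 58201 probes and 10 of 47753 gene names. RNA was measured on 9 Agilent 1-dye arrays. Of these, 3 came from cells given a non-targeting siRNA (si-Control), 3 from cells given siRNA to GATA3 (GATA3 knockdown) and 3 from cells given siRNA to HIF-1α (HIF-1α knockdown). All cells, the controls included, were transfected for 72 h and held at 1% O2 for 18 h, so no array shows these genes in normal oxygen. The study had more than 1 siRNA against each target but used 1 of them for these arrays, so what the siRNA did and what the loss of its target did cannot be told apart. Nothing in the labels says whether the 3 arrays of a group came from separate cultures, so P values measure the spread between these arrays, which may be technical.

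EMT is the programme by which epithelial cells give up their cell-to-cell junctions and take on the shape and motility of mesenchymal cells. SNAI1, SNAI2, ZEB1 and ZEB2 are zinc finger proteins that bind E-box sequences and repress epithelial genes, with CDH1, which encodes E-cadherin, as their best known target. TWIST1 and TWIST2 are basic helix-loop-helix factors of the same programme. E-cadherin and the product of EPCAM hold epithelial cells together, while N-cadherin, encoded by CDH2, and vimentin are the usual markers of the mesenchymal state. In carcinoma lines, partial states that express both kinds of marker are common, and HIF-1 is known to induce TWIST1 and other members of the programme under low oxygen. GATA3 is a zinc finger factor of epithelial and lymphoid lineages.

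The targeted genes were lower where the labels say so. GATA3 had a log2 intensity between 10.71 and 11.48 on the si-Control arrays and between 9.48 and 10.40 on the GATA3 knockdown arrays. HIF1A was between 16.24 and 17.24 in si-Control cells and between 14.13 and 14.59 in HIF-1α knockdown cells. On the HIF-1α knockdown arrays GATA3 was at 10.30, 11.11 and 10.78, which overlapped the GATA3 knockdown arrays. Between the knockdowns GATA3 differed by -0.89 (unadjusted P = 0.024 and adjusted P = 0.387 in limma). HIF1A was at 17.02, 16.03 and 16.99 on the GATA3 knockdown arrays, above all HIF-1α knockdown arrays. The share of probes well above background on an array was between 73.3% and 88.0%, and the median spot intensity ranged from 992.5 to 3560. The lowest of these medians belonged to si-Control replicate 3. Each slide carried 1 array of every group, and the replicate number is the number of the slide. Of 10 squamous epithelial markers, 7 were well above background on all 9 arrays, among them KRT14, TP63 and DSP, and KRT5 was not well above background on any. Of 8 fibroblast markers, 4 were well above background on all arrays and 3, LUM, COL3A1 and PDGFRA, on none. Endothelial and leukocyte markers passed the same mark in 3 of 6 and 4 of 5 measured genes, so a probe well above background does not by itself show expression of a gene in these cells. In bulk RNA, fewer cells of a type and less RNA per cell cannot be told apart.

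All 10 genes were measurable. Of their 16 probes, 15 were well above background on all 9 arrays, and the exception was the dimmer of the pair of ZEB1 probes. SNAI1, SNAI2, CDH1, VIM and EPCAM had 1 probe each, TWIST1, TWIST2, ZEB1 and CDH2 had 2, and ZEB2 had 3. The CDH1 probe was printed on 10 spots per array, which were averaged. Where a gene had more than 1 probe, the brightest stood for the gene in the comparisons. Probes differ in how brightly they report the same amount of RNA, so the intensities below compare arrays for 1 gene and never 1 gene with another. The epithelial genes CDH1 and EPCAM and the mesenchymal genes CDH2 and VIM were all well above background on every array of the 3 groups.

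The zinc finger gene SNAI1 (chr20:49982980-49988886 in GRCh38.p14) encodes SNAIL. Its log2 intensity was 11.53, 11.92 and 12.42 on si-Control replicates 1 to 3. On the GATA3 knockdown arrays it was 13.12, 12.18 and 13.09, and on the HIF-1α knockdown arrays 11.52, 12.06 and 11.71. The GATA3 knockdown arrays of slides 1 and 3 were above every other array, while that of slide 2 was below si-Control replicate 3, so the GATA3 knockdown and si-Control groups overlapped. Every GATA3 knockdown array was above every HIF-1α knockdown array. SNAI2 encodes SLUG, the close relative of SNAIL. It was at 16.38, 16.76 and 16.28 in si-Control cells, at 16.66, 16.83 and 16.85 in GATA3 knockdown cells, and at 16.20, 16.83 and 16.40 in HIF-1α knockdown cells. The 3 groups of SNAI2 values lay over each other.

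For the basic helix-loop-helix gene TWIST1 (chr7:19113047-19117636), the si-Control arrays gave 12.70, 12.80 and 13.25, the GATA3 knockdown arrays 12.99, 13.04 and 13.49, and the HIF-1α knockdown arrays 13.15, 13.18 and 12.99. All 9 values fell within the range from 12.70 to 13.49 with the groups interleaved. TWIST2 (chr2:238848085-238910534), its paralogue, was at 11.81, 11.79 and 11.90 in si-Control cells and at 12.64, 11.81 and 12.16 in GATA3 knockdown cells. In HIF-1α knockdown cells it was at 11.96 and 11.51, and the spot of HIF-1α knockdown replicate 3 was marked as non-uniform and was left out. These values are of the brighter TWIST2 probe, on which the si-Control arrays were close together and the GATA3 knockdown array of slide 2 lay among them. On the other TWIST2 probe the si-Control arrays were spread widely, at 10.72, 11.42 and 12.36. That probe gave 11.39, 11.31 and 11.92 in GATA3 knockdown cells and 10.80, 11.65 and 11.29 in HIF-1α knockdown cells.

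ZEB1 (chr10:31318417-31529804) and ZEB2 (chr2:144384081-144520119) encode large zinc finger and homeodomain repressors. The brighter ZEB1 probe gave 8.91, 9.18 and 9.58 in si-Control cells, 9.36, 9.98 and 10.41 in GATA3 knockdown cells, and 9.64, 9.23 and 9.41 in HIF-1α knockdown cells. The GATA3 knockdown arrays of slides 2 and 3 were above all other arrays, and that of slide 1 fell among the controls. The brightest ZEB2 probe gave 14.01, 14.69 and 15.75 in si-Control cells, 15.06, 14.67 and 15.15 in GATA3 knockdown cells, and 13.84, 14.63 and 14.41 in HIF-1α knockdown cells. The si-Control arrays of ZEB2 spanned more than both knockdown groups together, with replicate 1 near the bottom and replicate 3 at the top. No HIF-1α knockdown array reached the lowest GATA3 knockdown array for this gene.

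CDH1 (chr16:68737292-68835537) was at 14.93, 14.95 and 15.93 in si-Control cells, at 14.88, 14.17 and 14.97 in GATA3 knockdown cells, and at 14.40, 14.83 and 14.97 in HIF-1α knockdown cells. Si-Control replicate 3 stood above the other 8 arrays, and the remaining controls lay within the range of the knockdowns. CDH2 (chr18:27932879-28177130) was at 15.54, 15.23 and 13.87 in si-Control cells, at 14.84, 15.12 and 14.22 in GATA3 knockdown cells, and at 15.79, 15.03 and 15.31 in HIF-1α knockdown cells. Here si-Control replicate 3 was the lowest of the 9 arrays, and the groups overlapped.

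VIM (chr10:17228241-17237593) was at 16.88, 17.84 and 18.27 in si-Control cells, at 17.97, 18.27 and 18.04 in GATA3 knockdown cells, and at 17.05, 17.51 and 17.83 in HIF-1α knockdown cells. The GATA3 knockdown arrays were close together at the top and above all HIF-1α knockdown arrays, and the si-Control arrays reached from the lowest value of the 9 almost to the highest. EPCAM (chr2:47369311-47387020), which encodes a homophilic adhesion protein of epithelia, was at 13.53, 13.92 and 15.02 in si-Control cells, at 13.49, 12.55 and 14.07 in GATA3 knockdown cells, and at 13.70, 14.64 and 14.27 in HIF-1α knockdown cells. The lowest EPCAM value belonged to GATA3 knockdown replicate 2 and the highest to si-Control replicate 3.

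**Figure D1:**
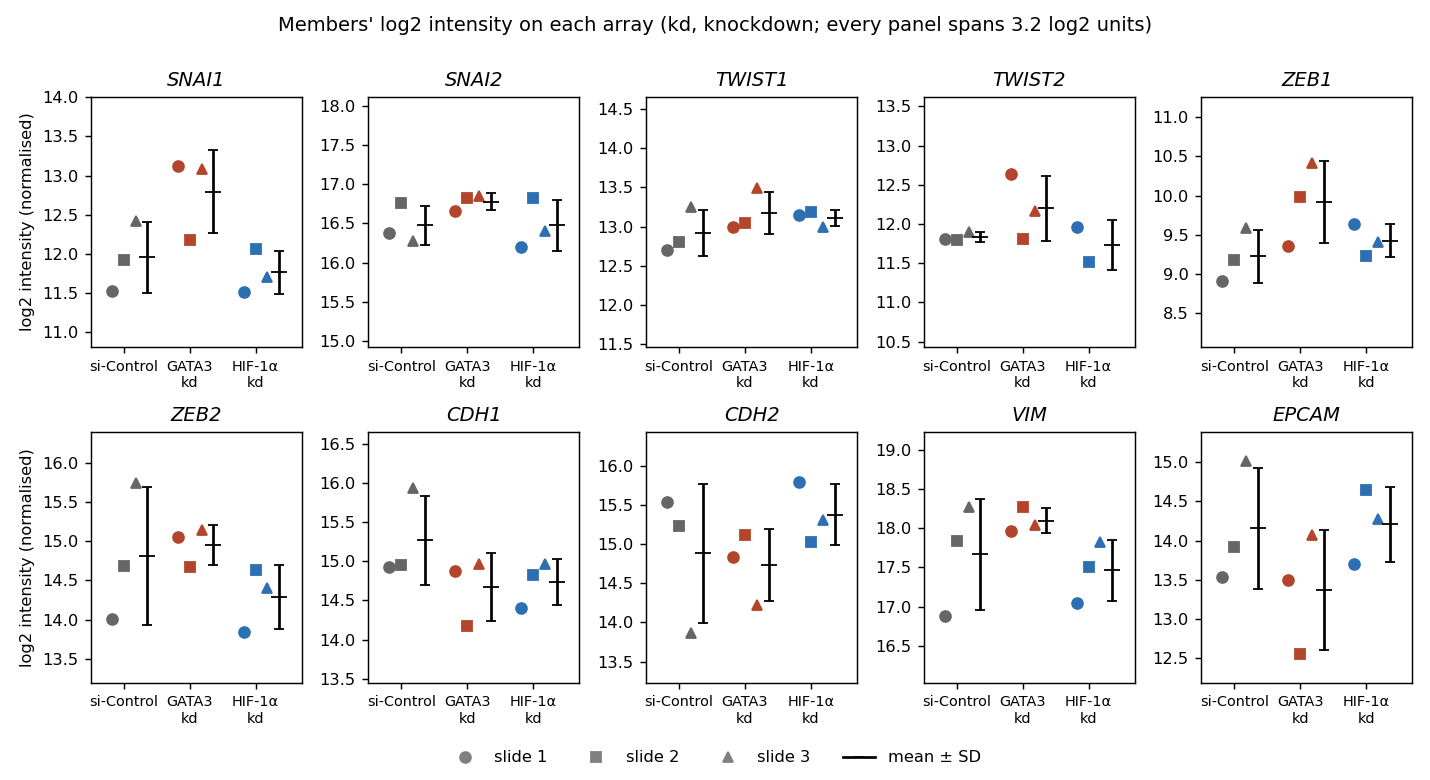
Normalised log2 intensity (vertical axis) of the probe that stands for each of the 10 genes on the 9 arrays, by group (horizontal axis). Circles, squares and triangles mark the arrays of slides 1, 2 and 3, and the black bars give the mean ± SD of a group (n = 3, and n = 2 for TWIST2 in HIF-1α knockdown). SNAI1 is higher on the 3 GATA3 knockdown arrays than on the 3 HIF-1α knockdown arrays, and the si-Control arrays of ZEB2, CDH2, VIM and EPCAM are spread widely.

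The si-Control arrays differed among themselves as much as the groups did. Among these 3 arrays, replicate 3 gave the highest value for 8 of the 10 genes (SNAI1, TWIST1, TWIST2, ZEB1, ZEB2, CDH1, VIM and EPCAM) and the lowest for SNAI2 and CDH2. Replicate 1 gave the lowest value for 7 of them. The span from the lowest to the highest si-Control array ran from 0.12 for TWIST2 to 1.74 for ZEB2 on the log2 scale. The mean difference between GATA3 knockdown and si-Control cells was smaller than that span for 8 of the 10 genes, the others being TWIST2 and ZEB1. All these spans are of the probe that stands for the gene. On the other TWIST2 probe the si-Control arrays ran from 10.72 to 12.36 and the GATA3 knockdown difference, 0.04, was smaller than that span. For HIF-1α knockdown the mean difference was smaller than the span of the standing probe for all 10. The epithelial genes CDH1 and EPCAM and the mesenchymal gene VIM were thus high together on si-Control replicate 3, and CDH2 was low.

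The comparison of GATA3 knockdown with si-Control asks what the programme does in hypoxic cells when GATA3 is reduced. SNAI1 and ZEB1 were higher, and the other 8 genes did not pass the threshold, an unadjusted P of 0.05 in limma. Of all genes tested, 2.97% passed it in this comparison, against 2 of 10 here. SNAI1 rose from 11.96 ± 0.45 (SD, n = 3) to 12.80 ± 0.53 (SD, n = 3). This was a log2 fold change of 0.84 (standard error 0.34, unadjusted P = 0.0321 in limma), or 1.79-fold, higher on 3 of 3 slides by 1.59, 0.26 and 0.67. ZEB1 rose from 9.22 ± 0.34 (SD, n = 3) to 9.92 ± 0.52 (SD, n = 3). Its log2 fold change was 0.69 (standard error 0.31, unadjusted P = 0.0496 in limma), or 1.62-fold, higher on 3 of 3 slides by 0.46, 0.80 and 0.83. After Benjamini-Hochberg adjustment over all genes, the adjusted P of every one of the 10 genes was 1 in limma. Both kept their sign in 9 of 9 fits that left out 1 array, at 0.62 to 1.15 for SNAI1 and 0.45 to 0.98 for ZEB1, but not their calls. SNAI1 was called in 5 of the 9, and lost the call without si-Control replicate 1 (0.62), si-Control replicate 2 (0.82), GATA3 knockdown replicate 1 (0.68) or GATA3 knockdown replicate 3 (0.69). ZEB1 was called in 2 of 9, without si-Control replicate 3 (0.88) and without GATA3 knockdown replicate 1 (0.98). It lost the call at 0.53 and 0.67 without si-Control replicates 1 and 2, and at 0.66 and 0.45 without GATA3 knockdown replicates 2 and 3. Without any 1 HIF-1α knockdown array its fold change stayed at 0.69 and the unadjusted P was 0.0605 to 0.0683 in limma. With other processing SNAI1 lost its call in separate fits of 6 arrays, and ZEB1 lost its call in 6 of the alternatives, those fits included. For none of the 10 genes were the groups free of overlap, against 6.03% of the genes with values on all 6 arrays. The GATA3 knockdown arrays also had fewer probes well above background, from 73.3% to 83.0% against 85.8% to 88.0% in si-Control, and the part of this in the result was not tested.

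The other transcription factors gave log2 fold changes in GATA3 knockdown of 0.30 for SNAI2, 0.25 for TWIST1, 0.37 for TWIST2 and 0.14 for ZEB2. The 95% intervals of these differences were -0.25 to 0.86 for SNAI2, -0.30 to 0.80 for TWIST1, -0.26 to 0.99 for TWIST2 and -0.79 to 1.07 for ZEB2. The interval of ZEB2 reached past 1 log2 unit, and those of the other 3 stayed under it. CDH1, the E-cadherin gene, had a log2 fold change of -0.60 (standard error 0.35, unadjusted P = 0.115 in limma), with slide differences of -0.04, -0.79 and -0.96. EPCAM had -0.79 (standard error 0.48, unadjusted P = 0.13 in limma), with slide differences of -0.04, -1.37 and -0.95. Both were at nearly the same level as their control on slide 1, and both leaned on si-Control replicate 3: without it the values were -0.27 for CDH1 and -0.35 for EPCAM. Without GATA3 knockdown replicate 3, EPCAM was at -1.13 and passed the threshold (unadjusted P = 0.0483 in limma). The mesenchymal genes gave -0.16 for CDH2 and 0.43 for VIM, neither of which passed, and without si-Control replicate 1 VIM was at 0.0458. Across the 10 genes the median log2 fold change was 0.28, with 7 above 0 and 3 below, beside a median of -0.02 over all genes.

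The comparison of HIF-1α knockdown with si-Control asks the same of HIF-1α. None of the 10 genes passed the threshold, which 5.23% of all genes passed. The HIF-1 targets CA9, PGK1 and SLC2A3 did pass, with log2 fold changes of -1.74, -0.99 and -1.63, while SLC2A1 was at -0.76 and VEGFA at 0.06 without passing. In GATA3 knockdown none of these targets passed, with -0.12 for CA9, -0.19 for PGK1, -0.16 for SLC2A1, -0.68 for SLC2A3 and 0.02 for VEGFA. Among the transcription factors, the log2 fold changes in HIF-1α knockdown were -0.19 for SNAI1, -0.00 for SNAI2, 0.19 for TWIST1, -0.10 for TWIST2, 0.20 for ZEB1 and -0.52 for ZEB2. The 95% interval was -0.56 to 0.55 for SNAI2 and -0.36 to 0.74 for TWIST1. The interval of ZEB2 was -1.45 to 0.41, and without si-Control replicate 1 its log2 fold change was -0.92 and passed the threshold (unadjusted P = 0.0378 in limma), while without si-Control replicate 3 it was -0.0551. Among the markers, CDH1 had a log2 fold change of -0.53 (95% interval -1.30 to 0.24) and was lower on 3 of 3 slides, by differences of -0.53, -0.12 and -0.96. Without si-Control replicate 3 it was -0.21. CDH2 had 0.49, VIM -0.20 and EPCAM 0.05. The lowest adjusted P among the 10 genes was 0.823 in limma, and the groups overlapped for all 10, where 13.3% of the genes with values on all 6 arrays did not. The median over the 10 was -0.05, beside -0.01 over all genes. Both knockdowns were set against the same 3 si-Control arrays, so the similar values of CDH1, -0.60 and -0.53, share the high control of slide 3.

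**Figure D2:**
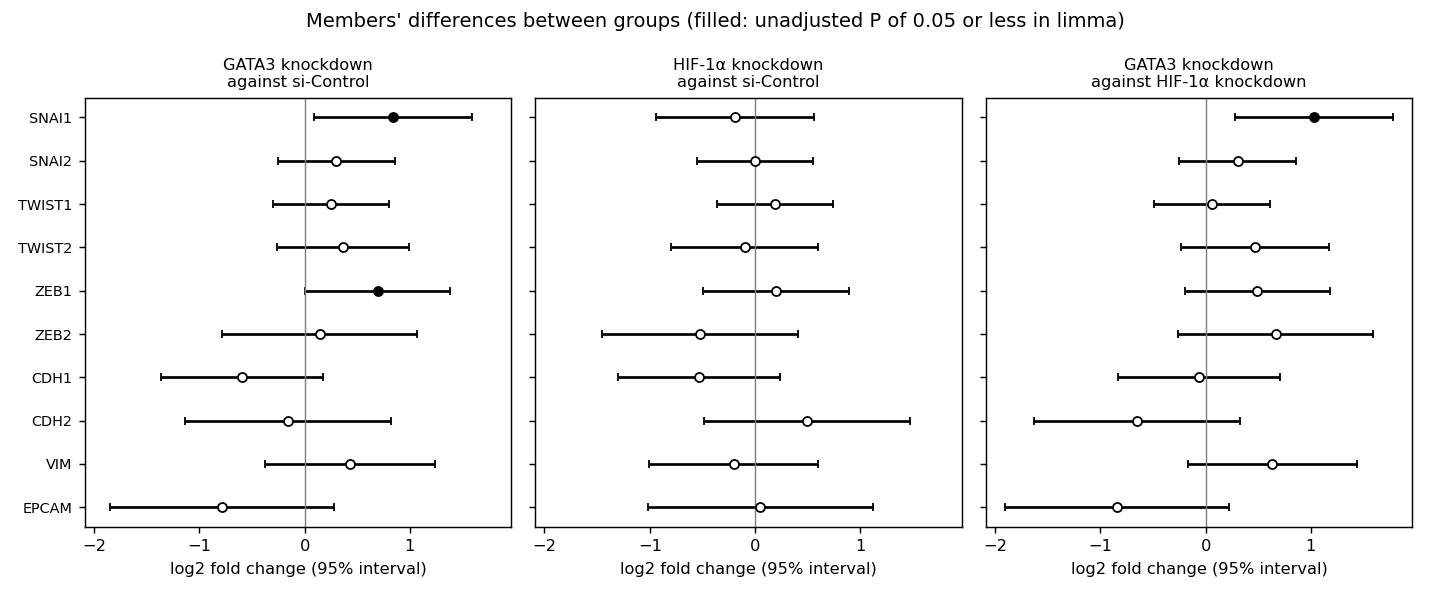
Log2 fold change (horizontal axis) with its 95% interval for the 10 genes (vertical axis) in the 3 comparisons, from the limma fit of all 9 arrays. Filled points passed an unadjusted P of 0.05: SNAI1 (0.84) and ZEB1 (0.69) in GATA3 knockdown against si-Control, none in HIF-1α knockdown, and SNAI1 (1.03) in GATA3 knockdown against HIF-1α knockdown.

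Setting the knockdowns against each other leaves the si-Control arrays out of the difference. SNAI1 alone of the 10 genes passed the threshold, with 12.80 ± 0.53 (SD, n = 3) in GATA3 knockdown and 11.77 ± 0.27 (SD, n = 3) in HIF-1α knockdown. The log2 fold change was 1.03 (standard error 0.34, unadjusted P = 0.0122 and adjusted P = 0.364 in limma), or 2.04-fold, and the groups did not overlap. It was higher on 3 of 3 slides, by 1.59, 0.12 and 1.38, and it was called in 9 of 9 fits with 1 array left out, at 0.88 to 1.34. In any comparison, a fit without an array of the third group, here si-Control, moved the difference only through the normalisation and the shared spread. SNAI1 was 1 of 10 genes called, where 12.0% of all genes were called. The groups also did not overlap for VIM and ZEB2, which makes 3 of 10 genes, and 22.8% of all genes with values on all 6 arrays did not overlap. VIM was 0.63 higher in GATA3 knockdown (standard error 0.36, unadjusted P = 0.11 in limma) and higher on 3 of 3 slides, by 0.92, 0.76 and 0.21. With the slide as a block in the fit the same difference had an unadjusted P of 0.048 in limma, and with the arrays scaled to their 75th percentile in place of quantile normalisation it was 1.13 (unadjusted P = 0.0467 in limma). ZEB2 was 0.66 higher (95% interval -0.26 to 1.59). EPCAM differed by -0.84 (unadjusted P = 0.11 in limma), of which slide 2 gave -2.10 and the others -0.21 and -0.20, and without GATA3 knockdown replicate 3 it was at -1.19 and was called. CDH1 differed by -0.06 (95% interval -0.83 to 0.71), CDH2 by -0.65, ZEB1 by 0.49, TWIST2 by 0.47, SNAI2 by 0.30 and TWIST1 by 0.06, none of which passed.

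The genes with more than 1 probe did not always give the same picture. In a fit over all probes, 4 of the 16 probes were called in GATA3 knockdown against si-Control, all of them higher, where 3.14% of all probes were called. They were the SNAI1 probe, both ZEB1 probes and the second ZEB2 probe (A_23_P142560). Among the 15 probes well above background on all arrays, which leaves out the dimmer ZEB1 probe, 3 were called. None of the 16 was called in HIF-1α knockdown, against 5.33% of all probes. Between the knockdowns 4 were called, 3 higher and 1 lower, against 12.3% of all probes, and 3 of the 15, 2 higher and 1 lower, without the dimmer ZEB1 probe.

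The second ZEB2 probe targets the coding transcript of ZEB2, as the brightest one does. Its log2 intensity was 9.61, 10.64 and 11.25 in si-Control cells, 11.72, 11.50 and 12.12 in GATA3 knockdown cells, and 9.38, 10.19 and 10.84 in HIF-1α knockdown cells. Every GATA3 knockdown array was above every other array. The log2 fold change against si-Control was 1.28 (standard error 0.46, unadjusted P = 0.02 in limma), higher on 3 of 3 slides, and against HIF-1α knockdown it was 1.64 (standard error 0.46, unadjusted P = 0.00528 in limma). The first of these lost the call without si-Control replicate 1 (0.84) or GATA3 knockdown replicate 3 (1.11), and the second kept it in 9 of 9 fits with 1 array left out. The brightest ZEB2 probe gave 0.14 and 0.66 in the same comparisons. The remaining ZEB2 probe (A_21_P0000590) is annotated to a non-coding transcript and gave -0.03 and 0.04. The 3 ZEB2 probes thus put the GATA3 knockdown difference at 0.14, 1.28 and -0.03, and ZEB2 as a gene cannot be called from them.

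The dimmer ZEB1 probe (A_33_P3640690) was well above background on 1 of 3 arrays in si-Control, on 2 of 3 in GATA3 knockdown and on 0 of 3 in HIF-1α knockdown. It read 6.08, 7.78 and 8.88 in si-Control cells, 8.65, 8.73 and 9.88 in GATA3 knockdown cells, and 6.80, 7.37 and 7.41 in HIF-1α knockdown cells. All GATA3 knockdown arrays were above all HIF-1α knockdown arrays. As 1 si-Control array measured this probe, the fitted log2 fold change of 1.50 in GATA3 knockdown (unadjusted P = 0.0352 in limma) rests in part on values near background and is not used for ZEB1. Without si-Control replicate 1 it was 0.75 and lost the call. In HIF-1α knockdown the probe was not well above background on any array and has only a bound there. Set against that bound, its mean in GATA3 knockdown was 3.14-fold higher, and that mean takes in an array where the probe failed the mark. All its readings in GATA3 knockdown were 8.65 or more, so the mark can fall above the bound and 3.14 is not a lower limit. On each array the bound is the dimmest signal of any probe well above background, or the signal of this probe where that is higher, and the spread between arrays is not in it.

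The second CDH2 probe (A_33_P3214159) read 12.78, 12.42 and 11.56 in si-Control cells, 11.84, 12.52 and 11.25 in GATA3 knockdown cells, and 12.73, 12.83 and 13.03 in HIF-1α knockdown cells. The HIF-1α knockdown arrays were close together and above every GATA3 knockdown array. The difference between the knockdowns was -0.99 (standard error 0.38, unadjusted P = 0.0273 in limma), which lost the call in 4 of 9 fits with 1 array left out, those without GATA3 knockdown replicate 1, GATA3 knockdown replicate 3, HIF-1α knockdown replicate 2 or HIF-1α knockdown replicate 3. The brighter CDH2 probe had -0.65 in the same direction without passing. The second probes of TWIST1 and TWIST2 gave 0.51 and 0.04 in GATA3 knockdown. In HIF-1α knockdown they gave -0.10 and -0.26, and none passed.

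**Figure D3:**
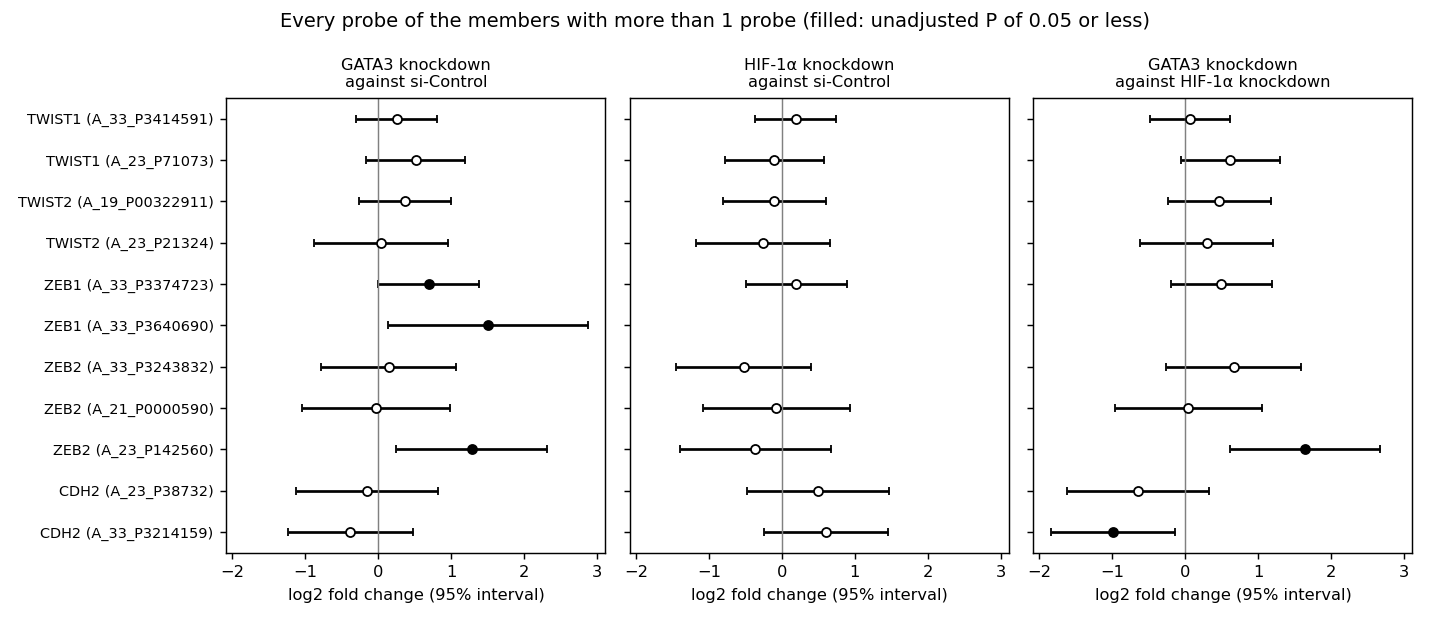
Log2 fold change (horizontal axis) with its 95% interval for each of the 11 probes of the 5 genes that have more than 1 probe (vertical axis), in the 3 comparisons. Filled points passed an unadjusted P of 0.05 in limma. The second ZEB2 probe stands at 1.28 and 1.64 where the brightest stands at 0.14 and 0.66, and the dimmer ZEB1 probe is left out of the comparisons with HIF-1α knockdown, where it has only a bound.

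RefSeq promoter windows were at hand for ZEB1, ZEB2, TWIST2, VIM and CDH2. The 250 bases before each annotated start were searched on both strands for the E-box of the SNAI and ZEB proteins (CACCTG, which on the other strand reads CAGGTG), the core of the hypoxia response element (ACGTG, which on the other strand reads CACGT and can overlap it) and the GATA motif (AGATAA, or with another first letter TGATAA, which on the other strand read TTATCT and, in the same order, TTATCA). Of all 35116 windows, 17.5% held the E-box, 18.5% the hypoxia core and 14.6% the GATA motif. Among the 7 starts of ZEB1, the first held 1 E-box match and the third held 2, the sixth held 2 matches to the hypoxia core, and none held the GATA motif. The ZEB2 window held 2 matches to the hypoxia core and none to the other searched forms, and the windows of TWIST2, VIM and CDH2 held no match to any. GATA forms that end in G, such as AGATAG, were not searched and are in none of these counts or shares. The ZEB2 window does hold AGATAG, which is left in small letters below. The windows of ZEB1 at its first start and of ZEB2 are shown because ZEB1 was called and ZEB2 divided by probe, with the matched letters in capitals, 5′ to 3′ on the gene's strand, from GRCh38.p14 at chr10:31318167-31318416 (plus strand) and chr2:144520120-144520369 (minus strand).
ZEB1: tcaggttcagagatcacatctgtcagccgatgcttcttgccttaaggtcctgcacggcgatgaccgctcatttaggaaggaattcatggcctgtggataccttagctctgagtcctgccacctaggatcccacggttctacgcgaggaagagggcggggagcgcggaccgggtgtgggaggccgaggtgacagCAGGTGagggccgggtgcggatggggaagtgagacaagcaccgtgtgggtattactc
ZEB2: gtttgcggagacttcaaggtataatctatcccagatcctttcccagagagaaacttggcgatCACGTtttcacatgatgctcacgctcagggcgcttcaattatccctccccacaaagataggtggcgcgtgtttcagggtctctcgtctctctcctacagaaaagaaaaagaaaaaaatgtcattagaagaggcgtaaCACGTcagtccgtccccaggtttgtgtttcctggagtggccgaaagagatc
A match is a run of letters and no evidence of binding, and a window without one says nothing of the factor.

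The genes around the 10 were taken from 3 lists, chosen with earlier results of these data known. Well above background on all 9 arrays were 25 of 25 junction genes, 18 of 23 mesenchymal genes and 23 of 30 measured regulators. Of all probes, 40206 of 58201 were. The shares over all genes given below take in the dim ones and accessions without a symbol, so they are of a set unlike the lists. Of 25 other genes of epithelial junctions, 6 fell in GATA3 knockdown and none rose, with 19 not passing, where 2.97% of all genes passed. They were the tight junction claudins CLDN4 (-1.44) and CLDN7 (-1.22), the adhesion molecule NECTIN4 (-1.28), the tight junction plaque proteins CGN (-1.28) and TJP3 (-0.88), and the polarity protein CRB3 (-0.69). On the GATA3 knockdown arrays all 6 were below all si-Control arrays wherever a spot was kept. They were picked by P on these same values, so their separation follows in part from the choice and adds no support. Of all genes with values on all 6 arrays, 6.03% were free of overlap. CLDN4 and TJP3 lacked a value on an array and are outside that share. The list's median log2 fold change was -0.42, with 21 of 25 below 0, beside -0.02 over all genes. Squamous epithelial, endothelial and leukocyte markers were also mostly below 0 in this comparison, with no gene called among them. These were 8 of 10 squamous epithelial markers (median -0.27), 6 of 6 endothelial markers (-0.13) and 4 of 5 leukocyte markers (-0.68). The fibroblast markers were not, with 6 of 8 above 0 (median 0.04), 1 called higher and 1 called lower. What moved the lists that were mostly below 0, and its part in the junction genes, was not tested. No adjusted P passed. The count was between 4 (without si-Control replicate 2) and 7 with 1 array left out, and 9 with the slide as a block. CTNND1, which encodes the E-cadherin partner p120 catenin, had -0.42 and did not pass. In HIF-1α knockdown, 2 of the 25 fell, the plaque protein TJP1 (-1.10) and CGN (-0.82), and none rose, with a median of -0.16, where 5.23% of all genes passed. Between the knockdowns, where 12.0% of all genes passed, 6 were lower in GATA3 knockdown, led by TJP3 (-1.42), CLDN7 (-1.22) and CRB3 (-1.07), and CTNNB1, encoding β-catenin, was higher (0.95). On the scanner's processed signal, with a 75th percentile scaling, the 6 became 3, as they did without GATA3 knockdown replicate 3, HIF-1α knockdown replicate 2 or HIF-1α knockdown replicate 3.

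The 23 other mesenchymal genes went both ways in GATA3 knockdown. The fibroblast protease gene FAP (0.86) rose, the calcium-binding S100A4 (-0.80) and the collagen cross-linking LOXL2 (-0.83) fell, and 20 did not pass. This was 3 of 23, against 2.97% of all genes. For LOXL2 the groups overlapped, and it was called in 3 of 9 fits with 1 array left out. The median was -0.03. Without si-Control replicate 3, 3 genes of the list were called higher in place of 1, and without GATA3 knockdown replicate 2 they were 2. FAP is also among the 8 fibroblast markers, of which the matrix proteoglycan DCN fell (-1.08, with 1 of 3 GATA3 knockdown arrays well above background) and 6 did not pass. In HIF-1α knockdown the collagen cross-linking LOX (-2.40), the matrix gene FN1 (-0.94) and FAP (-0.64) fell, none rose, and 20 did not pass, against 5.23% of all genes called. Between the knockdowns, against 12.0% called, 4 were higher in GATA3 knockdown, LOX (2.12), the AP-1 subunit gene FOSL1 (1.81), FAP (1.50) and the matrix gene POSTN (1.21), whose groups overlapped. Another 2 were lower, S100A4 (-0.64) and CDH6 (-1.73). The groups of CDH6 also overlapped, with slide differences of -2.74 and 0.08 and none for slide 3. CDH6 lost its call with the slide as a block.

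Of 31 other regulators of EMT, 30 were measured. In GATA3 knockdown the type II TGF-β receptor gene TGFBR2 rose (1.11), the epithelial transcription factors GRHL2 (-0.95) and OVOL1 (-1.11) fell, and 27 did not pass, against 2.97% of all genes called. GRHL2 and OVOL1 are known as keepers of the epithelial state. The other measured epithelial factors of the list lay on both sides of 0 and did not pass. OVOL1 had no value on the GATA3 knockdown array of slide 2. The list's median log2 fold change was 0.00, with 15 genes above 0 and 15 below. Without si-Control replicate 3, 6 of the list were called higher in place of 1. In HIF-1α knockdown the inhibitor of basic helix-loop-helix factors ID3 rose (1.18), and the factors KLF8 (-1.54) and SOX9 (-1.23) fell, against 5.23% of all genes called. Between the knockdowns, against 12.0% called, 3 were higher in GATA3 knockdown, TGFBR1 (1.07), BMI1 (1.05) and SMAD3 (0.75), and 3 were lower, ID3 (-1.32), GRHL2 (-0.99) and the epithelial splicing factor gene ESRP2 (-0.63). In GATA3 knockdown 2 of 3 arrays measured TGFBR1 well above background, and in HIF-1α knockdown 1 of 3, so its value rests in part on signals near background. With the slide as a block the 3 higher became 7.

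**Figure D4:**
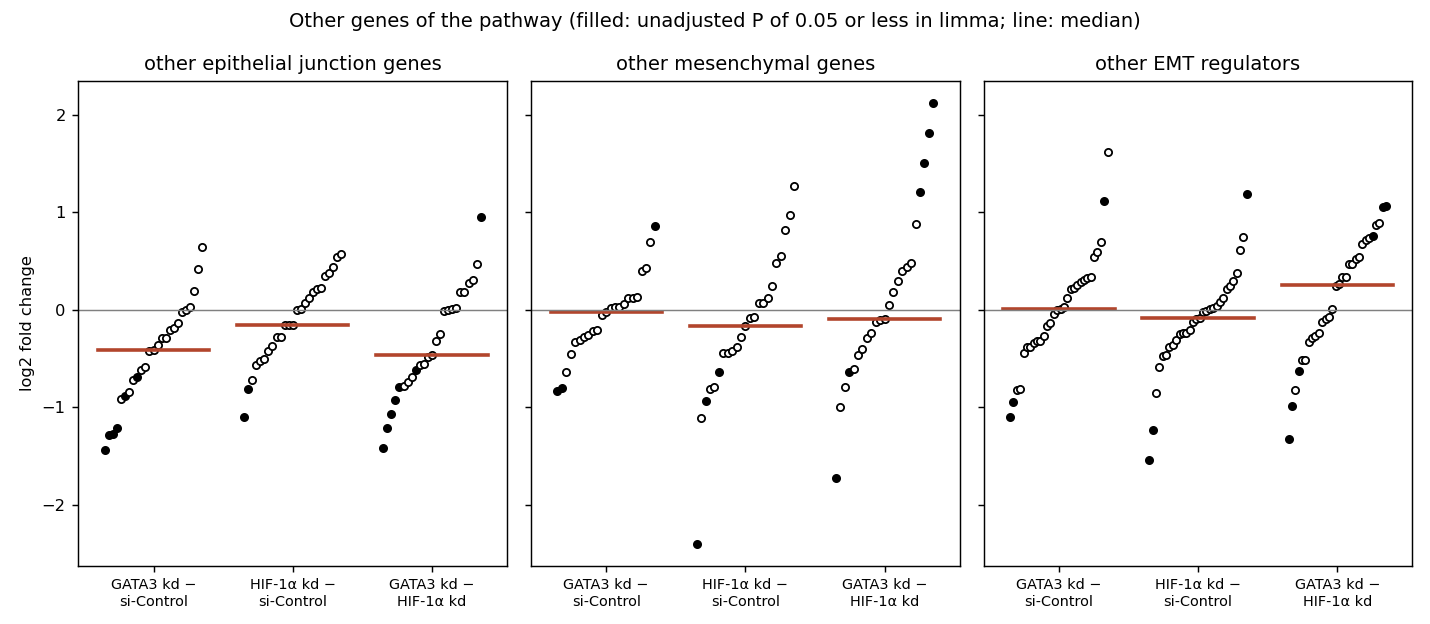
Log2 fold changes (vertical axis) of the other genes of epithelial junctions (25), the other mesenchymal genes (23) and the other EMT regulators (30), in order of size within each of the 3 comparisons (horizontal axis). Filled points are genes called at the unadjusted threshold in limma and the line is the median, which for the junction genes is -0.42 in GATA3 knockdown and lies at -0.16 in HIF-1α knockdown.

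The genes whose values followed CDH1 and VIM most closely over the 9 arrays were found by the root mean square of the log2 difference after each gene was centred. Among 14078 genes compared with CDH1, PHF13 was the closest (0.10), followed by CTNND1 (0.11) and LINC00957 (0.13), where CDH1 itself had an SD of 0.48 over the arrays. Among 13918 genes compared with VIM, MT1L (0.16), GCLC (0.17) and KRR1 (0.19) were the closest, against an SD of 0.50 for VIM. These are descriptions of 9 arrays that share slides and normalisation.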

How the data were processed

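OEC-M1 RNA was measured on 9 Agilent 1-dye arrays read with Feature Extraction 10.5.1.1, per the labels. The authors deposited, per array, the median intensity of every spot and its background on a linear scale, a processed intensity, and marks for outlying spots. They also deposited a log2 table, which is the processed intensity less 1 constant per array. With R 4.3.3 and limma 3.58.1, the median intensities (the files hold no mean) were background corrected by normexp with an offset of 50, non-uniform spots were left out, arrays were quantile normalised, replicate spots were averaged and each gene took the values of its brightest probe. Accessions were matched to RefSeq (31104 of 58201 probes). The 3 groups were fitted in 1 limma model. A gene was called at an unadjusted two-sided P of 0.05, as in the study's methods, with Benjamini-Hochberg adjusted P over all genes. The number of arrays limits the precision. The replicate number equals the slide in the file headers, and the pairing was checked: the deviations of same-numbered arrays correlated over 0.1 in 7 of 9 pairs (-0.195 to 0.719). The 10 genes and the lists were chosen with earlier results of these data known. Of these lists, 2 genes are not reported here, and the counts are over the others. From each list, up to 4 called genes per comparison were named by size of change among those well above background in a group. TJP3 and CRB3 in GATA3 knockdown against si-Control, S100A4, POSTN, TGFBR1 and ESRP2 between the knockdowns, DCN and CTNND1 were named after their values were seen. The fit was tested on simulated data. Alternatives were other background corrections and scalings, the authors' table, a dim-probe filter, non-uniform spots kept, probe means, other probes, a replicate block, separate fits, trend and robust eBayes, adjusted P and each array left out.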

Additional observations from a re-analysis of the deposited data

Results flagged for a closer look

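SNAI1 was marked because the effects of the 2 knockdowns, measured against the same controls, differed by a direct test. The log2 difference of GATA3 knockdown minus HIF-1α knockdown was 1.03 (standard error 0.34, unadjusted P = 0.0122 and adjusted P = 0.364 in limma), and GATA3 knockdown was higher on 3 of 3 slides. Of all genes tested, 12.0% passed the unadjusted threshold between the knockdowns, against 1 of the 10 genes here. No explanation was tested.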

How the results depend on the processing

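The number of genes called in GATA3 knockdown against si-Control, 1418, became 3050 on the scanner's processed signal with 75th percentile scaling, 2889 in the authors' table, 2381 with the replicate block, 928 in separate fits of 6 arrays and 0 after adjustment (smallest adjusted P 0.151 in limma), and 951 to 5957 with 1 array left out, highest without si-Control replicate 3 and 2218 without GATA3 knockdown replicate 2. In HIF-1α knockdown, 2478 became 3983 with the replicate block, 0 after adjustment (smallest adjusted P 0.127 in limma) and 1405 to 4801 with 1 array left out, the ends being HIF-1α knockdown replicate 1 and si-Control replicate 1, with 1533 without HIF-1α knockdown replicate 3. Between the knockdowns, 5675 became 8876 with the replicate block, 8630 in separate fits, 2 after adjustment (neither among the 10 genes) and 2690 to 9711 with 1 array left out, lowest without GATA3 knockdown replicate 3 and highest without GATA3 knockdown replicate 2. Without GATA3 knockdown replicate 1, HIF-1α knockdown replicate 1, HIF-1α knockdown replicate 3 or si-Control replicate 3 the last count was 3286, 3052, 2978 or 9431.

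Of the 10 genes, the 2 called in GATA3 knockdown became 1 with the processed signal, the authors' table, normexp without an offset, the dim-probe filter, or trend and robust eBayes, 0 in separate fits and after adjustment, and 0 to 2 with 1 array left out, 0 without si-Control replicate 1 or 2. In HIF-1α knockdown the count of 0 became 0 to 1 with 1 array left out. Between the knockdowns, 1 became 2 with 75th percentile scaling after normexp, the mean of a gene's probes or the replicate block, 3 in separate fits, 0 after adjustment and 1 to 2 with 1 array left out. The slide is the replicate number, so a block for the slide is the replicate block, which among the 10 genes changed the call of VIM between the knockdowns alone (0.63, unadjusted P = 0.048 in limma). The deviations were checked in 9 pairs of same-numbered arrays from different groups, which share arrays. In 5 of these 9 pairs the second array was the best match of the first within its group. ZEB1 in GATA3 knockdown missed the threshold at 0.77 with the processed signal, 0.75 in the authors' table and 0.74 without an offset, and SNAI1 in separate fits (unadjusted P = 0.055 in limma).

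Reversals of sign all fell on differences that were not called in either setting. In HIF-1α knockdown, SNAI2 was 0.0156 with non-uniform spots kept, TWIST2 0.0185 in the authors' table, TWIST1 -0.10 on its second probe, and ZEB1 -0.0927 as the mean of its probes, which takes in the probe not well above background there. That probe gave no value of its own in comparisons with HIF-1α knockdown. ZEB2 in GATA3 knockdown was -0.0300 on the non-coding probe. With 1 array left out, the values ran in HIF-1α knockdown from -0.40 to 0.0429 for SNAI1, -0.18 to 0.15 for SNAI2, -0.33 to 0.13 for TWIST2, -0.00849 to 0.82 for CDH2, -0.61 to 0.0936 for VIM and -0.26 to 0.48 for EPCAM. In GATA3 knockdown they ran from -0.26 to 0.61 for ZEB2 and -0.66 to 0.17 for CDH2, and between the knockdowns from -0.0918 to 0.16 for TWIST1 and -0.23 to 0.19 for CDH1. The causes were not tested. Of 37 calls outside the 10, of the targeted genes, the HIF-1 targets and the list genes named by size of change, 24 were kept in all 9 fits with 1 array left out and all 37 kept their sign. LOXL2 in GATA3 knockdown kept its call in 3 of them, and CTNNB1 and SMAD3 between the knockdowns in 5.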
